A study of Mus musculus with 12 samples.

Results

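The enzymes described here modify foreign and endogenous small molecules so that they can leave the body. They were taken from the deposited table by symbol: names starting Gst and a letter, names starting Ugt, Sult, Ces, Fmo or Ephx and a digit, and Nat8 with its relatives. The rule gave 60 of 11614 genes: 18 glutathione transferases (Gst), 15 UDP-glucuronosyltransferases (Ugt), 9 carboxylesterases (Ces), 8 genes with the symbol Nat8 or its extensions, 4 sulfotransferases (Sult), 4 flavin-containing monooxygenases (Fmo) and 2 epoxide hydrolases (Ephx). One of them, Nat8l, makes N-acetylaspartate in neurons and joined through its symbol alone; it reached 100 scaled reads in 1 of 12 libraries.

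Messenger RNA of kidney cortex from C57BL/6J mice was sequenced in 12 libraries, 3 in each of 4 groups. Control mice had a normal diet and corn oil, and NASH mice (non-alcoholic steatohepatitis, a fatty, inflamed liver) a Western diet and carbon tetrachloride (CCl4), each for 12 or 24 weeks. The model therefore changes diet, a toxin and the liver together, and what each adds to a difference cannot be told apart. Per the labels the groups held 6 control and 6 NASH mice at 12 weeks and 8 control and 10 NASH mice at 24 weeks, males and females in equal number, without saying which or how many mice stand behind a library, so that p-values measure the spread between these libraries only.

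In the kidney these enzymes are concentrated in the proximal tubule, which takes up organic acids, drugs and filtered compounds. Carboxylesterases cut esters, flavin monooxygenases oxidize nitrogen and sulfur atoms, and epoxide hydrolases open reactive epoxides. Glutathione transferases, glucuronosyltransferases and sulfotransferases then attach glutathione, glucuronic acid or sulfate. Glutathione conjugates are trimmed to cysteine conjugates, and Nat8 acetylates these to the mercapturic acids found in urine.

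Depth was 7170000 to 14100000 estimated reads per library. At 12 weeks replicates 2 and 3 had 7170000 and 8230000 in NASH and 13700000 and 13100000 in control. At 24 weeks they had 11300000 and 8280000 against 14100000 and 11200000. NASH 24-week replicate 1 was deeper than its control, at 12300000 against 10100000. NASH against control in replicates 2 and 3 thus also compares lower with higher depth, whose part was not tested. The deposited log2 values are read counts times 1 factor per library, with scaled totals of 13600000 to 14100000 reads. The cortex label matched its defining cells: all 12 listed proximal tubule markers were measured, and their summed level lay between log2 18.01 and 18.45 over all libraries. In the 6 contrasts limma called 0 of them with or without the replicate number as a block. The sum does not show each marker: Slc7a13 had an SE of 4.12 at 12 weeks without the block and 0.344 with it, and so differed by replicate number. Replicate 1 stood apart in every group. Xist, the RNA of the silenced X chromosome, was at log2 10.6 to 11.54 in the 4 replicate 1 libraries and 2.97 to 4.86 in the 8 others. The Y-linked Ddx3y was at 2.48 to 4.25 against 8.95 to 9.62, and Eif2s3y, Kdm5d and Uty, also Y-linked, were lower in replicate 1 without overlap. By these genes the replicate 1 libraries were of female type and the 8 others of male type. Replicates 2 and 3 alone thus hold libraries of male type only. Results are given as fitted without the replicate number, with the number as a block, and in replicates 2 and 3 alone.

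Among the members, levels per transcript length spanned from the glucuronosyltransferase Ugt3a2, with 10100 scaled reads per 1000 bases in the mean of the 6 control libraries, down to Nat8l. On this per-length scale the highest carboxylesterases were Ces1f at 5640 and Ces1d at 4610. These means pool replicates that differ: Ces1f was at 6850 to 9340 in control replicates 2 and 3 and at 195 to 302 in control replicate 1, below Ces1d at 3660 to 4270. Fmo1 stood at 5280 and Fmo2 at 1850. Among the glutathione transferases the highest means were those of Gsta2 (5030) and Gstm1 (4430). In control replicates 2 and 3 Gstm1, at 3920 to 5510, lay above Gsta2, at 2250 to 2990, and in control replicate 1 Gsta2, at 8600 to 11100, lay above Gstm1, at 2960 to 3930, and above Ugt3a2, at 6050 to 6930. Of the sulfotransferases Sult1d1 was at 4420 and Sult1c2 at 1090, and of the Nat8 group Nat8f1 was at 4150 and Nat8 at 2990. The soluble epoxide hydrolase Ephx2, at 3760, exceeded the microsomal Ephx1, at 340.

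**Figure D1:**
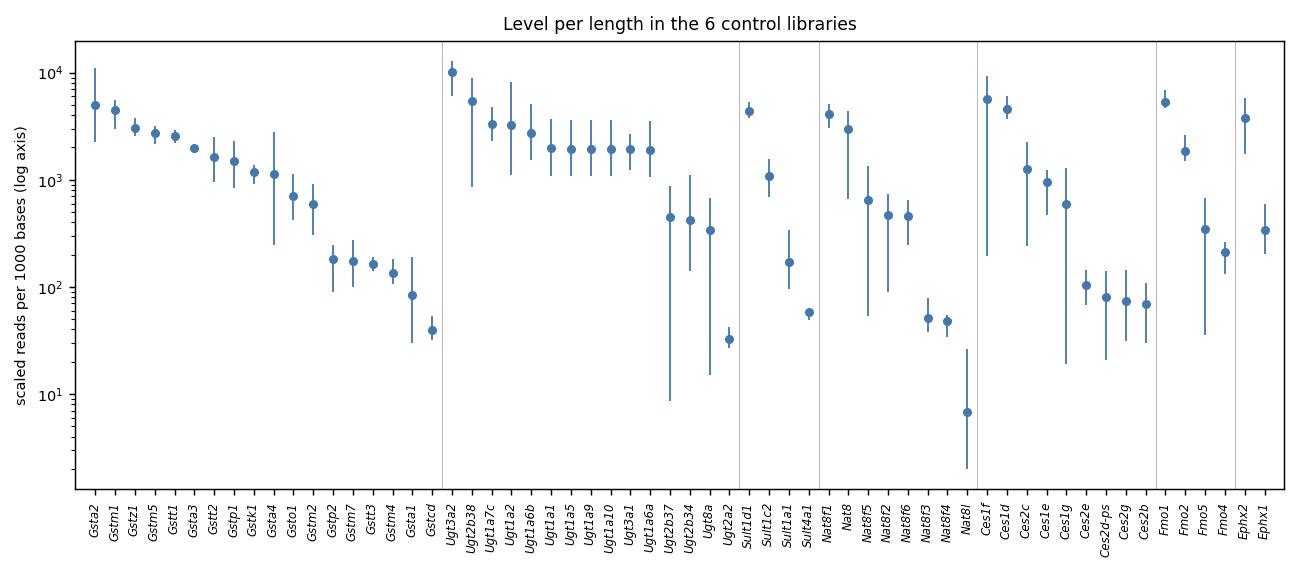
Level of each member in scaled reads per 1000 bases of transcript (log axis), as the mean (point) and the lowest to highest (line) of the 6 control libraries, by family. Ugt3a2 has the highest mean, at 10100, and lines for members such as Ces1f, Ugt8a and Ugt2b37 span more than a factor of 10.

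At 12 weeks the clearest differences between NASH and control cortex were lower Gsta3, Fmo4 and Ces1g and higher Nat8f5 and Nat8f6, none of which was called in all 12 libraries without the replicate block. All 5 were called with the block and, without it, in replicates 2 and 3 alone. In all 12 libraries without the block limma called 0 of 60 members at an adjusted p under 0.05, when 0.0517% of all genes were called (6 of 11614), and 7 members had an unadjusted p under 0.05 (14.5% of all genes). With the replicate block 8 members were called (13.3%), 5 higher and 3 lower. Of all genes 12.9% were called with it, 3.01% higher and 9.85% lower. At an unadjusted p under 0.05 there were 24 members (30.8% of all genes). Under quantile normalization with the block 3 members were higher and 3 lower, when 532 and 698 of all genes were. The share of members called was thus near that of all genes. Of the 60 members 23 had a positive and 37 a negative change, with a median log2 change of -0.111 against -0.0802 over all genes. The 8 Ugt1a genes among the negative ones share reads of 1 locus. With them counted once, a count made after the values were seen, 23 were positive and 30 negative of 53, with a median of -0.04.

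Among the glutathione transferases, Gsta3 fell. This alpha-class enzyme conjugates electrophiles with glutathione. Its log2 values, here and below in the order of replicates 1, 2 and 3, were 11.61, 11.50 and 11.35 in controls at 12 weeks and 10.68, 10.10 and 9.91 in NASH. The 3 NASH libraries all lay below the 3 controls, and below every control at 24 weeks too. Gsta3 was 2.39-fold lower (log2 change -1.26, SE 0.197, n = 3 per group; limma adjusted p = 0.0849, and 0.00209 with the replicate block). Its call with the block was kept without each of the 12 libraries, with changes from -1.39 to -1.14 and an adjusted p of at most 0.0182. The pair of replicates 1 changed by -0.93, those of replicates 2 and 3 by -1.40 and -1.44.

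The gene (gene ID 14859) lies on chromosome 1 of mm10, from 21240585 to 21265575 on the plus strand. It is shown with its promoter because its call with the block was kept without each library. The 250 bases before its RefSeq start, at chr1:21240335-21240584 of GRCm38.p6, read as follows, 5′ to 3′ on the plus strand, with capitals for a match to the antioxidant response element that begins 121 bases before the start.

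Gsta3: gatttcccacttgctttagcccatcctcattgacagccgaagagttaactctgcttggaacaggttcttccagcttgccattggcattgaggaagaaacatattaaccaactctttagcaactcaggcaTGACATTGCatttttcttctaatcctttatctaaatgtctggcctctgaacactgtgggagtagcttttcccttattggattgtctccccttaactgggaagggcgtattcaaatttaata

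The motif was searched as TGACNNNGC on both strands of the 300-base windows from 250 before to 50 after a start. It was in 12.5% of 27025 promoters and in 2 of the 48 members with a promoter in the table, Gsta3 and Gstm5. Gstm5, named here for its motif after the values were seen, was at a log2 change of 0.24 with an adjusted p of 0.14 with limma and the replicate block.

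The other glutathione transferases did not pass. Of the 18 in the family 7 had a positive and 11 a negative change at 12 weeks, with a median of -0.13. Gstm1, a mu-class enzyme, was at 0.43 (SE 0.219), Gstt2, of the theta class, at 0.53 (SE 0.325; adjusted p = 0.053 with the block) and Gsta2 at -0.04 (SE 0.806). Gsta1 and Gsta2 cannot be told apart well by reads: 89.7% of the 50-base words of Gsta1 and 64.2% of those of Gsta2 occur in other genes, each mainly in the other or in predicted copies. None of the words of Gsta3 do.

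The flavin monooxygenase Fmo4 was lower in NASH at 12 weeks. It stood at 8.88, 8.70 and 8.70 in controls and 8.17, 7.49 and 7.56 in NASH, and the groups did not overlap. The change was 2.02-fold (-1.02, SE 0.259; limma adjusted p = 0.26, and 0.0146 with the replicate block). The call was lost without control replicate 2 (0.0585) or 3 (0.0623) or NASH replicate 2 (0.0503) of this time. Fmo4 (226564) lies on chromosome 1, from 162793883 to 162812549 on the minus strand, next to Fmo1 and Fmo2. All 4 Fmo genes had a negative change, but Fmo1 (-0.12, SE 0.226), Fmo2 (-0.45, SE 0.198) and Fmo5 (-0.10) did not pass.

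Among the carboxylesterases Ces1g, which hydrolyses lipid esters and is best known from liver and intestine, had the largest fall of any member. Controls were at 6.23, 10.66 and 11.53 and NASH libraries at 5.83, 7.38 and 6.47. Replicate 1 was low in both groups, so the ranges overlap, while replicates 2 and 3 of NASH lay below those of control. The fitted change was -2.92 (7.55-fold, SE 1.61; limma adjusted p = 0.423, and 0.0337 with the replicate block). The pairs changed by -0.40, -3.28 and -5.07, and in replicates 2 and 3 alone the change was -4.17 (limma adjusted p = 0.00126). With the block the call was lost without replicate 2 or 3 of either group of this time, at an adjusted p of up to 0.131, and with the GC and length trend of the libraries removed (0.0793). Over all 12 libraries left out in turn its change ran from -4.01 to -1.97.

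Ces1g (12623) lies on chromosome 8, from 93302369 to 93337209 on the minus strand. Its promoter is shown for that change: chr8:93337210-93337459 of GRCm38.p6, 5′ to 3′ on the minus strand, with capitals for a match to the D-box, the site of clock output factors of the PAR family, 232 bases before the start.

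Ces1g: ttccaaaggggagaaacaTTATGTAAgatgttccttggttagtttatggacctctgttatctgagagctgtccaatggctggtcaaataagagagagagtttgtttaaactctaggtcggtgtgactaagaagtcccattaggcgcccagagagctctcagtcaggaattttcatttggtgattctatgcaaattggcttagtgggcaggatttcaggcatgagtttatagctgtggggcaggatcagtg

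The D-box, searched as TTATGNAA on both strands of the 300-base windows, was in 3.52% of 27025 promoters and in 5 of 48 members, which were Ces1e, Ces1g, Gstt1, Ugt1a10 and Ugt1a9. These matches are letters in a window and were not tested for binding. Gstt1 was at -0.14 (SE 0.169) at 12 weeks, and no other of these genes but Ces1g was called. The other 8 carboxylesterases did not pass either. Ces1f, on the same stretch of chromosome 8, was at 0.55 (SE 1.85), Ces1d at -0.02 (SE 0.171) and Ces2b at 0.87 (SE 0.472). Of the family 4 had a positive and 5 a negative change.

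Of the epoxide hydrolases, Ephx1, which detoxifies arene and alkene epoxides, stood at 9.25, 9.0 and 8.45 in controls and 9.90, 9.08 and 9.44 in NASH at 12 weeks. These values overlap between the groups, although each NASH library was above the control of the same number. The change was 0.57 (SE 0.333; limma adjusted p = 0.44, and 0.0464 with the replicate block), and the call with the block was lost when any 1 library but control 24-week replicate 1 or NASH 12-week replicate 2 was left out (adjusted p up to 0.165) and with the GC and length trend removed (0.077). Ephx2, which hydrolyses epoxides of fatty acids, was at -0.04 (SE 0.575).

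In the Nat8 group, enzymes of the endoplasmic reticulum related to the cysteine conjugate acetyltransferase, several genes were higher at 12 weeks. Of its 8 genes 6 changed in the positive direction, and the median was 0.50 against -0.0802 over all genes. With the replicate block 4 were called higher and 0 lower, when 3.01% of all genes were called higher and 9.85% lower. The 6 include the scarcely read Nat8l (0.44, SE 0.893), whose pairs went both ways. The median lies between its value and that of Nat8f1 (0.55). Nat8f3 and Nat8f6, also among the 6, may share reads, as given below. Nat8f5 stood at 5.72, 9.30 and 9.68 in controls and 7.21, 11.09 and 10.71 in NASH. Each NASH library was above the control of its number, and replicates 2 and 3 above all controls. The change was 1.43 (2.70-fold, SE 1.54; limma adjusted p = 0.691, and 0.00519 with the replicate block).

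Nat8f6 was at 8.72, 9.81 and 9.51 in controls and 9.55, 11.01 and 10.79 in NASH. As for Nat8f5, replicate 1 was the lowest library of each group. It was 2.15-fold higher (1.10, SE 0.493; limma adjusted p = 0.341, and 0.00209 with the block). The calls of Nat8f5 and Nat8f6 with the block were kept without each of the 12 libraries, with changes from 1.22 to 1.64 and from 1.04 to 1.21. Reads of Nat8f6 are uncertain in origin, since 86.8% of its 50-base words occur in Nat8f3, Nat8f7 or other genes, against 9.28% for Nat8f5. For Nat8f3 the share was 85.2%, mainly with Nat8f7 and Nat8f6.

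Nat8f1 and Nat8 were higher by less. Nat8f1 was at 12.01, 12.33 and 12.15 in controls and 12.51, 12.95 and 12.69 in NASH, without overlap (change 0.55, SE 0.179; limma adjusted p = 0.272, and 0.0363 with the block). Nat8 itself was at 9.34, 11.90 and 12.00 against 9.70, 12.54 and 12.29 (0.43, SE 1.02; 0.869, and 0.0497 with the block). Each NASH library was above the control of its number, but the ranges overlap. The block's call of Nat8f1 was lost without any 1 of the 12-week libraries or control 24-week replicate 3 (up to 0.108), and that of Nat8 without any 1 library but NASH 24-week replicate 1 (up to 0.179). Both were lost under quantile normalization (0.0599 and 0.0672) and with the GC and length trend removed, where the changes were 0.35 for Nat8f1 and 0.25 for Nat8 (0.211 and 0.342). Nat8f3 (0.74, SE 0.311) did not pass.

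Nat8 (68396), Nat8f1 (66116), Nat8f3 (93674), Nat8f5 (69049) and Nat8f6 (100504710) lie together on the minus strand of chromosome 6, between 85760631 and 85915677. The group did not move as 1 unit. Nat8f2, named here after its values were seen, was at 8.85, 10.89 and 10.95 in controls and 8.36, 10.36 and 9.93 in NASH, lower in each pair (-0.68, SE 0.954; limma adjusted p = 0.0543 with the block, and 0.0215 for the change of -0.77 in replicates 2 and 3 alone).

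**Figure D2:**
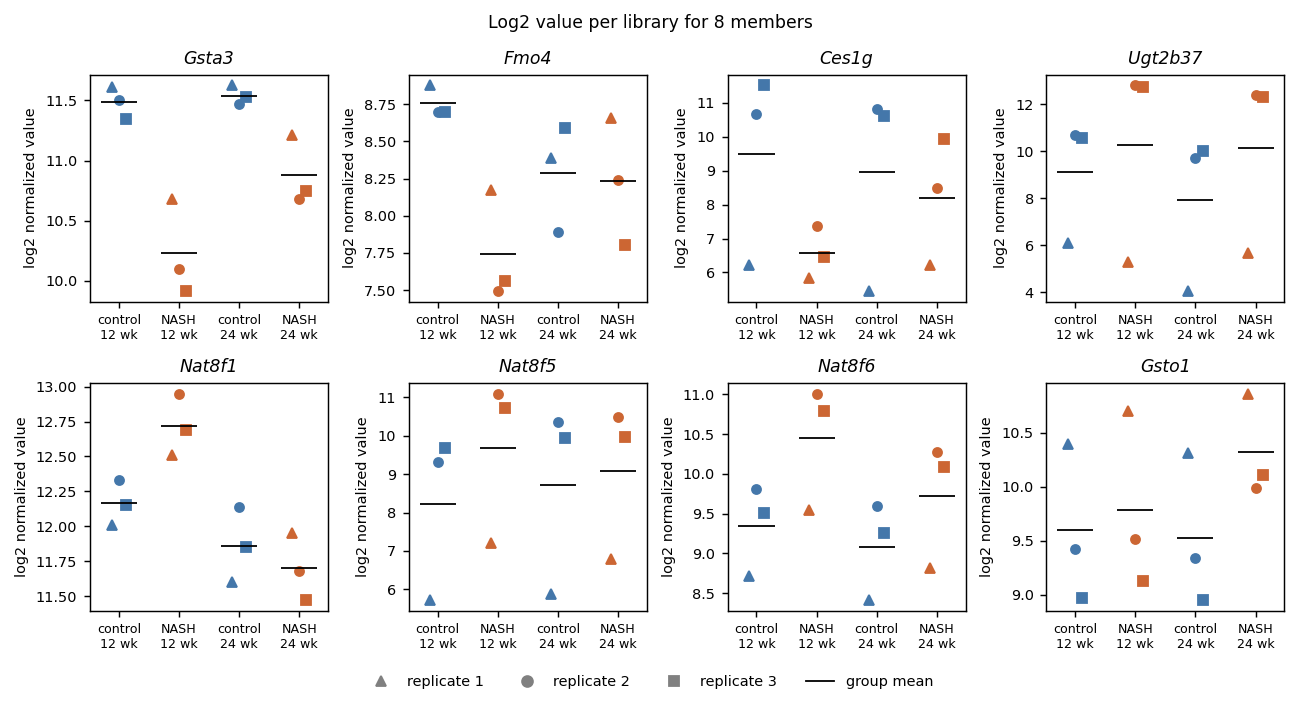
Deposited log2 value of 8 members in each library, by group; shapes mark the replicate number and lines the group mean. Gsta3 and Fmo4 are lower and Nat8f1 higher in NASH than in control at 12 weeks without overlap, while in Ces1g, Ugt2b37, Nat8f5 and Nat8f6 the replicate 1 library is the lowest of each group and in Gsto1 the highest.

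Among the glucuronosyltransferases no member was called at 12 weeks in the fits of all 12 libraries, with 4 positive and 11 negative changes and a median of -0.27. With the Ugt1a locus counted once, there were 4 positive and 4 negative changes, with a median of 0.09. The 4 sulfotransferases did not pass either, with Sult1d1, which sulfates catecholamine and other phenolic metabolites, at -0.02 (SE 0.166) and Sult1c2 at -0.32 (SE 0.158). In replicates 2 and 3 alone limma called 8 members (13.3%), 4 higher and 4 lower (6.67% each), when 3.31% of all genes were called, 0.818% higher and 2.5% lower. These were Nat8f5, Nat8f6, Ugt2b37 and Ugt2b38 on the higher side and Gsta3, Fmo4, Ces1g and Nat8f2 on the lower.

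At 24 weeks limma called 0 of 60 members without the block, when 0% of all genes were called, and 0 with it, when 0.00861% were called (1 of 11614). At an unadjusted p under 0.05 there were 2 members without the block (2.99% of all genes) and 12 with it (9.68%). The median change of the members was -0.0117, against 0.0102 over all genes, with 29 positive and 31 negative. The 8 Ugt1a genes, which share reads of 1 locus, are all among the negative ones (-0.18 to -0.09). Gsta3 again lay below its controls in each pair, at 11.21, 10.68 and 10.75 against 11.63, 11.47 and 11.53, without overlap (-0.66, SE 0.197; limma adjusted p = 0.999, and 0.255 with the block). Gsto1, an omega-class enzyme that reduces rather than conjugates many of its substrates, was at 10.86, 9.99 and 10.11 in NASH and 10.31, 9.34 and 8.95 in controls (0.79, SE 0.488; 0.999, and 0.218 with the block). Nat8f6 was at 0.64 (SE 0.493), and Ces1g at -0.75 (SE 1.61). Replicates 2 and 3 alone gave 2 calls (3.33%; 0.103% of all genes), Ugt2b37 higher and Gsta3 lower (-0.78, limma adjusted p = 0.0396).

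**Figure D3:**
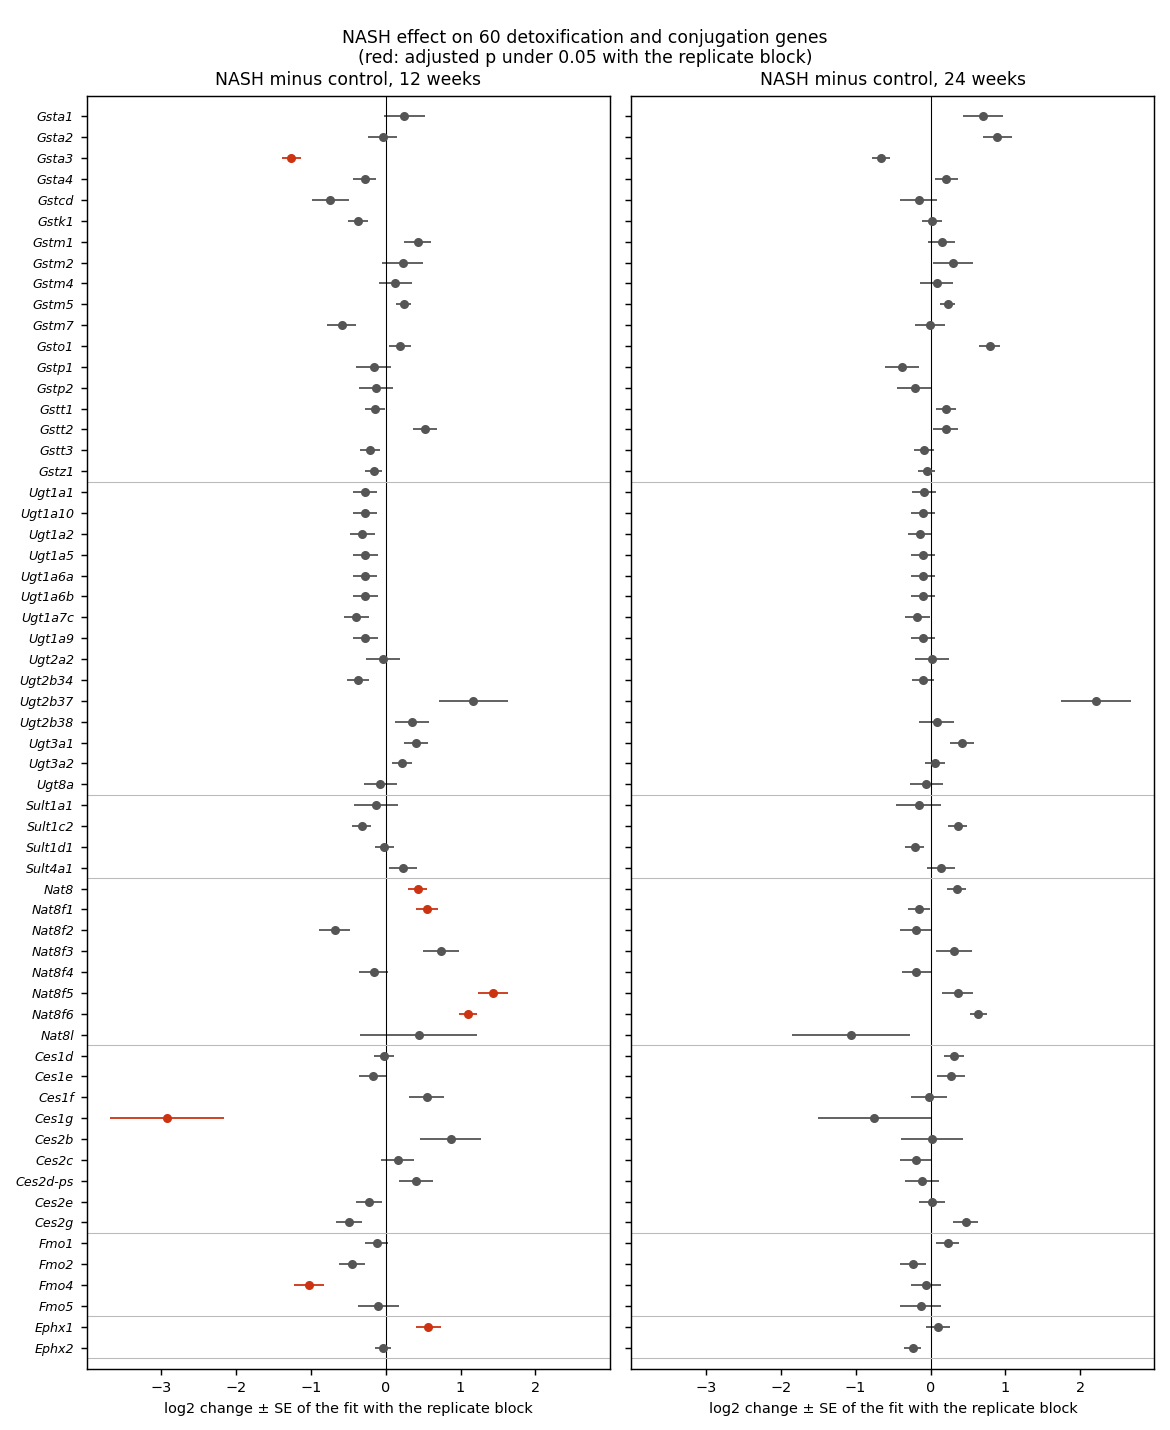
Log2 change of NASH against control for all 60 members at 12 weeks (left) and 24 weeks (right), as the fitted change and its SE with the replicate block, ordered by family; red marks an adjusted p under 0.05 in that fit. At 12 weeks 8 members are red, among them 4 of the Nat8 group on the higher side, and at 24 weeks 0 are.

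No member's NASH effect was shown to differ between the times: limma called 0 of 60 for the difference, without the block (0% of all genes) and with it (0.00861%), and 3 and 10 members had an unadjusted p under 0.05 (3.66% and 12.8% of all genes). The smallest p without the block among the members were those of Sult1c2 (difference 0.67, SE 0.224), Nat8f1 (-0.71, SE 0.253) and Fmo4 (0.96, SE 0.366), each at an adjusted p of 1. Of the Nat8 group 7 of 8 had a lower value at 24 than at 12 weeks for this effect, when 62.3% of all genes had a higher one. The 7 include the scarcely read Nat8l (-1.51, SE 1.26), whose highest value, 7.42, was that of control 24-week replicate 1.

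Averaged over both times, 8 members were called with the replicate block (13.3%), 6 higher and 2 lower, when 10.4% of all genes were called, 3.03% higher and 7.36% lower. Without the block limma called 0, when 0% of all genes were called, and 5 had an unadjusted p under 0.05 (13.6% of all genes), and 20 with the block (28.8%). Replicates 2 and 3 alone gave 6 calls (10%; 1.06% of all genes). Gsta3 was lower (-0.96, SE 0.139; limma adjusted p = 0.0745, and 0.00126 with the block) and Nat8f6 (0.87; 0.00126 with the block) and Nat8f5 (0.89; 0.0101) higher, and these 3 kept the block's call without each of the 12 libraries. Fmo4 was lower (-0.54; 0.0397), and Ugt2b37 (1.69; 0.0161), Gsto1 (0.49; 0.0195), Nat8 (0.39; 0.0279) and Ugt3a1 (0.41; 0.0432) were higher. Ugt3a1, which uses N-acetylglucosamine in place of glucuronic acid, lost its call under quantile normalization (0.0526) and when any 1 library but replicate 2 of control 12-week, NASH 12-week or NASH 24-week mice was left out (up to 0.117). The call of Fmo4 was lost when any 1 library but replicate 2 of the 24-week controls or 24-week NASH mice was left out (up to 0.0946). That of Nat8 was lost without any 1 of 7 libraries, which were control 12-week replicates 1 to 3, control 24-week replicates 1 and 3, NASH 12-week replicate 2 and NASH 24-week replicate 1 (up to 0.063). That of Gsto1 was lost without replicate 3 of the controls of either time (0.0582 and 0.0595). Removing the GC and length trend ended the calls of Fmo4 (0.0753), Gsto1 (0.0772) and Nat8 (change 0.25, 0.195).

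Ugt2b37, a glucuronosyltransferase of the steroid and drug conjugating 2B group, split by replicate more than any other member. At 12 weeks it was at 6.10, 10.68 and 10.54 in controls and 5.29, 12.82 and 12.72 in NASH libraries. The 24-week values were 4.03, 9.70 and 10.01 for controls and 5.66, 12.39 and 12.31 for NASH. In replicates 2 and 3 every NASH library was above every control at both times, and replicate 1 was low in all 4 groups. Replicates 2 and 3 alone gave changes of 2.16 at 12 weeks (limma adjusted p = 6.94e-05) and 2.49 at 24 weeks (1.66e-05). The pairs of replicates 1 differed by -0.82 and 1.63. In all 12 libraries the changes were 1.17 and 2.21 (SE 2.5 for both) and did not pass at either time (limma adjusted p = 0.855 and 0.999, and 0.115 and 0.319 with the block). The block's call for the average was lost without replicate 3 of the controls of either time (0.0508 for both).

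Its neighbour Ugt2b38 shared the split but less of the difference. It was at 11.53, 13.66 and 14.03 in controls and 11.01, 14.81 and 14.45 in NASH at 12 weeks (0.35, SE 1.24), and its change at 24 weeks was 0.08 (SE 1.24). In replicates 2 and 3 alone it was at 0.79 at 12 weeks (limma adjusted p = 0.0455) and 0.09 at 24 weeks (0.901). Of the 50-base words of these 2 transcripts, 18.3% and 37.4% occur in other genes, mainly Ugt2b5 and each other.

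Both genes lie on the minus strand of chromosome 5, Ugt2b37 (112417) from 87240492 to 87254788 and Ugt2b38 (100559) from 87409940 to 87424203. Their promoters are printed together to show how near these copies are. The windows are chr5:87254789-87255038 and chr5:87424204-87424453 of GRCm38.p6, 5′ to 3′ on the minus strand, and capitals mark the letters that differ or are unmatched in their alignment.

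Ugt2b37: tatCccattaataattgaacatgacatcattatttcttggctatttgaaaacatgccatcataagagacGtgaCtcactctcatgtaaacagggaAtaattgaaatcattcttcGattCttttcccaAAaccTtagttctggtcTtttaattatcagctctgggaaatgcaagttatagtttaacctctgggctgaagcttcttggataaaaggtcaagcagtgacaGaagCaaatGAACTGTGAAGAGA
Ugt2b38: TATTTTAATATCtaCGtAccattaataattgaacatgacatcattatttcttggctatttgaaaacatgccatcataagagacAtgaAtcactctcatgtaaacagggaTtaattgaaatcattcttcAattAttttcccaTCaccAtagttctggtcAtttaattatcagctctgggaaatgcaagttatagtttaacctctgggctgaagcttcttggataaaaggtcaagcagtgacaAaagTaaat

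Of 250 bases in each, 224 were identical in the alignment, with 12 mismatches and 28 unpaired bases over the 2 sequences.

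Replicate 1 differed from replicates 2 and 3 by as much as -6.13 on the log2 scale, when the largest change at 12 weeks in the fit of all 12 libraries was -2.92. These differences are a description, with no test. Of the 60 members 30 (50%) had no overlap between the 4 replicate 1 libraries and the 8 others, when 19.2% of all genes had none. Replicate 1 was above the others in 16 (26.7%; 15% of all genes) and below in 14 (23.3%; 4.21%). The median size of the difference was 0.716 on the log2 scale for the members and 0.299 for all genes. All 8 Ugt1a genes were above, and with their locus counted once, 23 of 53 (43.4%) had no overlap, 9 above (17.0%) and 14 below (26.4%), with a median size of 0.691. The labels give no sex or other property for a replicate number. By Xist and the Y-linked genes replicate 1 was of female type and the others of male type. What sex and anything else that goes with the number add to these differences cannot be told apart.

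By family, the directions were uneven in number, as they were over all genes, with 15% above and 4.21% below. Of the glutathione transferases 6 were above and 0 below, of the carboxylesterases 1 above and 5 below, of the Nat8 group 0 above and 3 below, and of the sulfotransferases 0 either way. The glucuronosyltransferases went both ways, 9 above and 4 below, or 2 above and 4 below with the Ugt1a locus counted once. Below were Ugt2b37 at log2 4.03 to 6.10 in replicate 1 against 9.70 to 12.82 in the others, and Ugt8a, the ceramide galactosyltransferase of myelin lipid synthesis, at 5.78 to 6.61 against 10.54 to 11.24. Ces1f was at 8.54 to 9.84 against 13.68 to 14.13, and Fmo5 at 7.54 to 8.37 against 10.40 to 11.79. Nat8f5 and Ces1g differed by -3.79 and -3.55.

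Above were Gsta4, the alpha-class enzyme that clears hydroxynonenal, at 11.11 to 11.50 in replicate 1 against 7.89 to 8.66, and Ugt2b34 at 11.04 to 11.72 against 8.40 to 9.13. Gsta1 and Gsta2 differed by 2.0 and 1.90, although their reads overlap as said above. Gsta3 was among the 12 of 18 glutathione transferases with overlapping ranges.

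**Figure D4:**
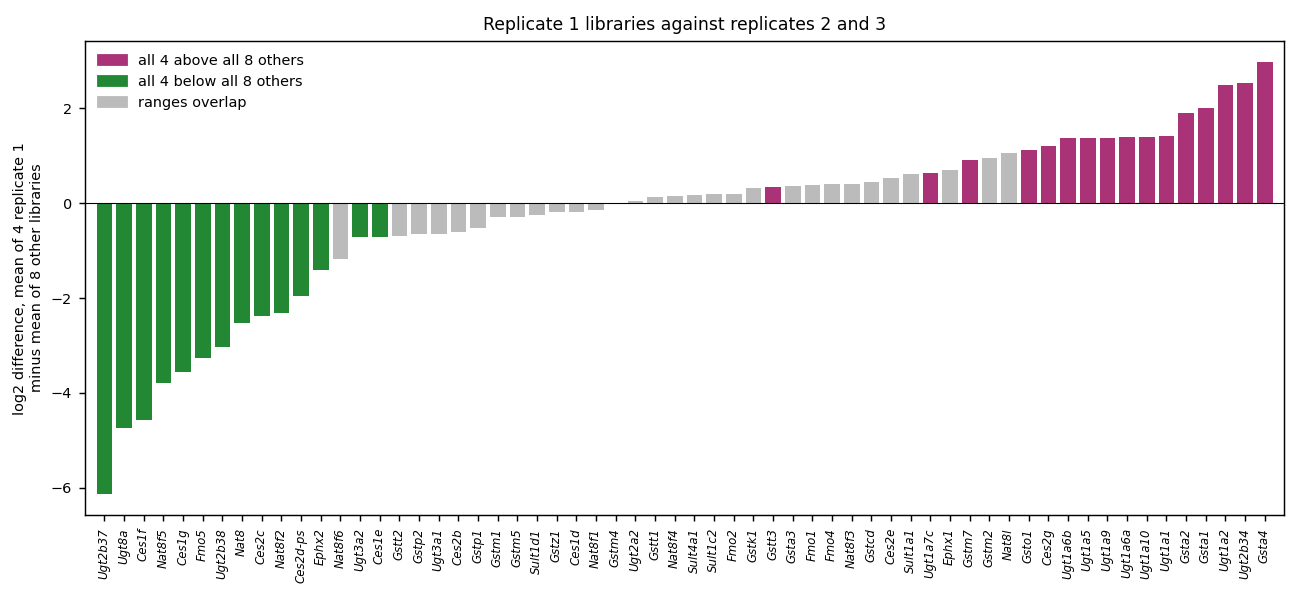
Difference on the log2 scale between the mean of the 4 replicate 1 libraries and the mean of the 8 others for each of the 60 members; colour marks members whose 2 sets of libraries do not overlap. Differences run from -6.13 for Ugt2b37 to 2.97 for Gsta4, with 14 members wholly below and 16 wholly above.

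The Ugt1a genes add a special case, since they are alternative first exons of 1 locus on chromosome 1 joined to 4 exons common to all 8. Their deposited values were nearly alike: apart from Ugt1a2 and Ugt1a7c, the 6 others lay within 2.77% of the lowest Ugt1a value in each library. That value was 8752 to 11576 scaled reads in replicate 1 and 2820 to 4872 in the others. What exceeds it is taken here as a gene's own reads.

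By this measure Ugt1a2 was read almost only in replicate 1. Its own reads were 10622 to 14864 in the 4 replicate 1 libraries, 50.7% to 56.2% of its value, and 0 to 22 in the 8 others, 0% to 0.56%. Ugt1a7c went the other way by share, with 2310 to 4197 own reads (19.0% to 26.6%) in replicate 1 and 3175 to 6498 (51.2% to 57.7%) in the others. The own reads of Ugt1a2 were 14864 and 11037 in control and NASH at 12 weeks and 10626 and 10622 at 24 weeks, 1 library each and so without a replicate check. Ugt1a1, the main bilirubin-conjugating enzyme, had 0 to 320 own reads, at most 2.69% of its value, so that its value is nearly all reads that the locus shares.

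**Figure D5:**
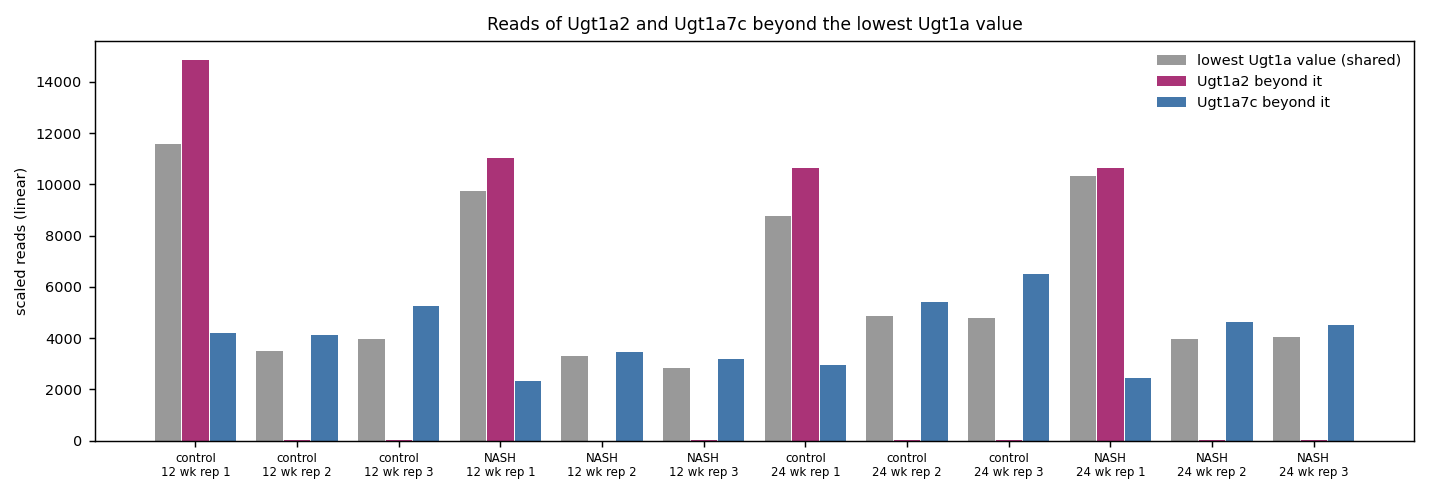
Scaled reads (linear) in each library: the lowest value of the 8 Ugt1a genes, which they share, and the reads of Ugt1a2 and Ugt1a7c beyond it. Ugt1a2 has 10622 to 14864 such reads in the 4 replicate 1 libraries and at most 22 in the 8 others.

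With time, limma called 0 of 60 members between 24 and 12 weeks, in control mice and in NASH mice, with or without the block. The share of all genes called was 0% without and 0.172% with the block in controls and 0% and 0.0258% in NASH. At an unadjusted p under 0.05 there were 1 and 9 members in controls (7.84% and 19.5% of all genes) and 4 and 12 in NASH (4.76% and 11.5%). In NASH the members' median change with time was 0.118, against 0.0201 over all genes, with 38 positive and 22 negative. The 8 Ugt1a genes, which share reads of 1 locus, are all among the positive ones (0.27 to 0.31). In the Nat8 group 7 of 8 were negative, with a median of -0.45, when 54% of all genes were positive. The 7 include the scarcely read Nat8l (-0.33, SE 0.893).

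Nat8f1 had the smallest p. Its NASH libraries were at 12.51, 12.95 and 12.69 at 12 weeks and at 11.95, 11.68 and 11.47 at 24 weeks, without overlap, but the change did not pass (-1.02, SE 0.179; limma adjusted p = 0.272, and 0.0599 with the block). In controls it was at -0.31 (SE 0.179). Gsta3 was at 0.65 with time in NASH (SE 0.197; 0.895, and 0.106 with the block) and 0.05 in controls. Sult1c2 was at -0.58 (SE 0.158; 0.454, and 0.0743 with the block) and Gstt2 at 0.54 (SE 0.325) in controls. Replicates 2 and 3 alone gave 6 calls in controls (10%; 6.5% of all genes) and 8 in NASH (13.3%; 4.66%), among the latter Nat8f1 (-1.25, limma adjusted p = 0.00141) and Gsta3 (0.71, 0.00791). The comparisons with time share libraries with those of NASH against control, so that they are not independent of them.

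Other genes of these pathways, 55 measured of 62 listed, were called in no comparison without the block. With the block 6 were higher and 1 lower at 12 weeks, when 3.01% of all genes were called higher and 9.85% lower. Those higher included Gclc (0.87) and Gss (0.59), which make glutathione, Acy1 (0.84), a deacylase of N-acetylated amino acids, Mgst3 (0.38), a membrane-bound glutathione transferase, and Por (0.73), which passes electrons to cytochromes P450. Abcc4 (-0.98), an exporter of organic anion conjugates, was lower. For the average of both times 3.03% of all genes were called higher and 7.36% lower with the block. Of the pathway genes 2 were higher, Acy1 (0.61) and Mgst3 (0.39), and 3 lower: Slc3a1 (-0.24), a subunit of cystine transport, Abcc2 (-0.48), an exporter of conjugates, and Nqo1 (-0.69), a quinone reductase. None was called in the other 4 comparisons.

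Some markers of other cells were also called with the block. Since RNA is from whole cortex, fewer cells of a type and less RNA per cell cannot be told apart. Of the 9 adipocyte markers, all measured, the summed level was log2 13.87 to 15.58 in the 12-week control libraries and 15.82 to 16.72 in the 12-week NASH libraries, and Pck1, which the proximal tubule also expresses, was the only one called at 12 weeks, higher with the block. At 24 weeks the sums were 16.14 to 17.07 and 16.50 to 17.46. Pck1 was then at 0.30, while the changes of the 8 others ran from -4.66 to -1.63 with none called. The median of the list was -2.8, against 1.19 at 12 weeks. The sums include Pck1 and did not follow the 8 others at 24 weeks, so they do not measure adipocyte RNA alone. Adipoq was at 2.02 and -3.82 at the 2 times without passing, and Plin4 was called higher with time in controls (3.97) with the block. The sums of the 10 measured of 14 hepatocyte markers were 13.38 to 15.41 and 13.13 to 15.85 at 12 weeks, with Ttr called higher (2.77) and Apob lower (-0.67) with the block and Alb at 0.46 (SE 0.843). Erythroid sums were 10.16 to 10.63 and 10.60 to 12.65. For the average 4 of 5 such genes were called higher with the block, when 3.03% of all genes were. Of 6 markers of thick limb and distal tubule 3 were called lower at 12 weeks with the block, when 9.85% of all genes were. Of 8 of the collecting duct Aqp2 was higher (1.46) and Slc26a4 lower (-0.53). Markers of podocytes (5), endothelium (7), macrophages (8) and fibroblasts (6) were all measured, and 0 of them were called at 12 or 24 weeks. Their part in the differences of the detoxification genes was not tested.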

How the data were processed

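RNA of 12 kidney cortex libraries was analysed, 3 in each of 4 groups. The submitters' processing notes name BWA, limma and build mm10, without versions or roles. The authors deposited normalized values, named so per the file headers, which are on the log2 scale by their range. Below 60 steps, 85.4% to 91.5% of a library's values were whole multiples of its step, within 0.01 steps. Filters before deposition are not given in the sources used here. Starts were raised by 1, since in 234 genes the length was the end less the start, and in 0 genes 1 more.

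The limma package 3.58.1 (R 4.3.3) was fitted to all 11614 genes with 4 group means over 12 libraries with a mean-variance trend. Tests are 2-sided and adjusted by Benjamini-Hochberg over all genes, with calls at an adjusted p under 0.05. There were 6 contrasts. Alternatives were the replicate number as a block, replicates 2 and 3 alone, quantile and median-of-ratios scaling, filters at a mean log2 of 5 and of log2 of 100, no trend, only the groups compared, removal of the GC and length trend, and leaving out each library. The fit was tested on simulated data.

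The block was judged from the correlations of deviations from group means: all 18 same-numbered pairs were above 0.1, from 0.187 to 0.742 (median 0.519). Pairs of replicates 2 with 3 were too (12 of 12, 0.187 to 0.637), and the meaning of a number is not in the labels. Those of replicate 1 with 2 ran from -0.677 to -0.3 and with 3 from -0.702 to -0.27. The check thus sets replicate 1 apart and cannot tell whether replicates 2 and 3 are matched by number. The members, the pathway and marker lists and the tests were chosen with earlier results of these data known. A called gene of these lists is not reported here. Named are members called in any contrast with or without the block, the 2 per direction with the smallest p in each contrast, the 2 per family with the highest per-length level, and up to 6 per direction that set replicate 1 apart.

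Promoters come from RefSeq, GRCm38.p6 (48 of 60 members matched), and shared 50-base words from the reference transcripts. Scripts ran in Python 3.11.15 with pandas 2.3.3, numpy 2.4.6 and, for figures, matplotlib 3.10.9.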

Additional observations from a re-analysis of the deposited data

Results flagged for a closer look

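Ces2g, Gsta4 and Sult1c2 lay on opposite sides of their controls at the 2 times in every pair of libraries with the same number, lower in NASH at 12 weeks and higher at 24 weeks. They were picked from the 60 members for such a difference, and the share of all genes with this pattern is not given here. Of all genes 33% were lower in all 3 pairs at 12 weeks, and 19.3% were higher in all 3 at 24 weeks. The effect of NASH was greater at 24 than at 12 weeks by 0.95 on the log2 scale for the carboxylesterase Ces2g, by 0.50 for Gsta4 and by 0.67 for Sult1c2. The limma test of the difference itself did not pass for any of these 3 genes, with an adjusted p of 1 for each without the replicate block and of 0.188, 0.38 and 0.208 with it.

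Ces2g pairs were at -0.68, -0.49 and -0.29 at 12 weeks and 0.30, 0.38 and 0.72 at 24 weeks. Those of Sult1c2, a sulfotransferase, were at -0.55, -0.28 and -0.12 and then 0.06, 0.37 and 0.63. Those of Gsta4 were at -0.14, -0.53 and -0.18 and then 0.11, 0.15 and 0.38. Control libraries of Ces2g and Sult1c2 were lower at 24 than at 12 weeks in each pair, while those of Gsta4 went both ways.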

How the results depend on the processing

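Without the replicate block 0 members were called at 12 weeks, when 6 of all 11614 genes were. With the block 8 members were called (1494 of all genes). Without it 8 were called in replicates 2 and 3 alone (385 of all genes) and 1 under median-of-ratios scaling (4). With the block and the GC and length trend removed 5 were called (2 higher, 3 lower), when 322 of all genes were. With the block 6 (3 and 3) were called under quantile normalization (1230 of all genes) and 10 under median-of-ratios scaling (1379). For the average of both times 0 members were called without the block (0 of all genes) and 8 with it (1207). Replicates 2 and 3 alone gave 6 (123). Without the block quantile normalization and median-of-ratios scaling gave 1 each (5 and 1 of all genes). With the block 5 were then called with the GC and length trend removed (283 of all genes). Quantile normalization with the block gave 8 (1161) and median-of-ratios scaling 10 (1243). In replicates 2 and 3 alone 2 members were called at 24 weeks (12 of all genes). With time there were 6 in controls (755) and 8 in NASH (541). For these comparisons the block gave 0 (1, 20 and 3 of all genes).

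Leaving out 1 library in turn without the block gave 0 to 1 calls at 12 weeks and for the average, and 0 elsewhere. The 1 was without NASH 12-week replicate 1, when 11 of all genes were called at 12 weeks and 2 for the average. With the replicate block leaving out 1 library gave 3 to 10 members at 12 weeks, when 253 to 1533 of all genes were called. The fewest members were 3 without control 12-week replicate 3 (253 of all genes). Control 12-week replicate 2 left out gave 4 (410), as did NASH 12-week replicate 2 (596). Leaving out control 24-week replicate 1 gave 10 (1533), and each of the others 5 to 7 (326 to 1461). For the average it gave 3 to 8 (210 to 1093 of all genes). There were 3 without replicate 3 of the 12-week controls (265) or of the 24-week controls (210). Without each of the others there were 5 to 8, 7 among them (364 to 1093). At 24 weeks it gave 0 to 1 (1 to 4 of all genes), and for the difference of the times 0 to 1 (0 to 29). With time it gave 0 to 3 in controls (0 to 434) and 0 to 5 in NASH (0 to 170). The pairing check and the values with the block beside each result are in the text above, and the block changed no other call. Other filters, no trend and the fit of the compared groups alone gave 0 calls of members throughout, when at most 6 of all genes were called. The cause of these shifts was not tested. Few reads limit Nat8l and Ugt2a2, which reach 100 scaled reads in 1 library each, and Gsta1 and Gstcd, which do in 4 each. What depth adds for the other members was not tested.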
